A study of Mus musculus with 17 samples.

Results

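The genes described here encode the vascular endothelial growth factor (VEGF) family as it was measured in endothelial cells of mouse bone marrow. The 9 genes, of 49585 in the count tables, were named by symbol as members of this family, with earlier results of these data known. They are the receptors Kdr, Flt1 and Flt4, the neuropilins Nrp1 and Nrp2, and the ligands Vegfa, Vegfb, Vegfc and Pgf. VEGF-A acts mainly through the receptor tyrosine kinase VEGFR2, the product of Kdr, to drive endothelial growth, survival, migration and permeability. VEGFR1, the product of Flt1, binds VEGF-A, VEGF-B and placental growth factor (the product of Pgf) with high affinity but signals weakly, so that it largely limits the ligand that reaches VEGFR2. VEGFR3, from Flt4, is the receptor for VEGF-C and marks lymphatic endothelium and, in bone marrow, sinusoidal vessels. Neuropilins are co-receptors that bind VEGFs and class 3 semaphorins and present the former to the kinases.

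The study compared wild-type mice (WT) with mice in which the endothelial gene Eng was deleted (KO). Eng encodes Endoglin, a co-receptor for ligands of the TGF-beta family. The KO mice carried Eng alleles with loxP sites around exons 5 and 6 and a tamoxifen-inducible Cre recombinase, Cdh5:CreERT2, which is active in cells that use the endothelial Cdh5 promoter. Tamoxifen was injected at 8 weeks of age, and all 17 animals, WT included, carry the label of tamoxifen treatment. Whether WT animals also had the Cre transgene is not in the labels. There were 4 WT and 4 KO libraries at 2 weeks after induction (2 females and 2 males each), and 5 WT (2 females, 3 males) and 4 KO libraries (1 female, 3 males) at 4 weeks. Cells of crushed long bones were gated as CD31+ and as lacking the blood markers CD45 and Ter119, with Sca1 named as a further marker in the extraction protocol but not in the design text. Libraries were made with SmartSeq2, which amplifies polyadenylated RNA without molecular identifiers.

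Library totals ran from 20477400 to 40882715 counts, and levels are given in CPM (counts scaled to the library total). The floor of 3 counts used here lay between 0.0734 and 0.147 CPM. In the 2-week libraries Eng averaged 1053 ± 252 CPM for WT and 274 ± 51.8 for KO (SD, 4 libraries each) without overlap. At 4 weeks it was at 2587 ± 122 CPM in WT (SD, n = 5), while the KO libraries f2, m1, m2 and m3 had 874, 322, 1647 and 274 CPM of Eng. The KO library m2 at 4 weeks thus kept the most Eng. Counts cover the whole gene and not exons 5 and 6 alone. Of 10 general endothelial markers none was at 0 in every library of any group. Libraries at 2 weeks had fewer detected genes (10886 to 13583, against 15996 to 21235 at 4 weeks) and a larger mitochondrial share (22.2% to 29.5%, against 4.66% to 8.99%). The 2-week KO libraries m2 and m3 held 4104 and 3150 CPM of 9 summed neutrophil markers, against 22.7 to 238 CPM in the other 2-week libraries. The 4-week libraries fell into 2 sets along the first principal component of their residuals, which took 48.7% of the residual variance over 4712 genes, with the VEGF genes and Eng left out. The first set held WT f, m1 and m2 with KO m1 and m2, and the second held WT f3 and m3 with KO f2 and m3. These sets were found in the data and are not groups of the study.

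Levels of the 9 genes were compared with each other only per kilobase of exon (CPM per kb). In WT at 4 weeks Kdr was highest with 154 ± 85.1 CPM per kb, followed by Nrp1 with 151 ± 21.3 and Flt1 with 84.8 ± 21.9 (SD, n = 5 for each). Kdr and Nrp1 overlapped between libraries, whereas Nrp1 and Flt1 did not. Vegfc, the ligand of VEGFR3, was the most abundant ligand at 27.4 ± 7.66 CPM per kb and stood apart from both neighbours in this order. Nrp2 and Flt4 followed with 10.4 ± 2.68 and 6.81 ± 1.78 CPM per kb and overlapped. Pgf was at 3.39 ± 0.777 CPM per kb, and Vegfb (1.03 ± 0.559) and Vegfa (0.192 ± 0.21) were lowest and overlapped. In KO at 4 weeks the 5 highest were in the same order, and Pgf (7.86 ± 4.75 CPM per kb, SD, n = 4) overlapped both Nrp2 and Flt4. At 2 weeks Kdr, Flt1 and Nrp1 were again the 3 highest in both genotypes, and each overlapped the next of these in the order. At 2 weeks Vegfb was above Vegfc in the KO mean through the single library f1. Vegfd, the other ligand of VEGFR3, was at 0 in every 2-week library and reached at most 1.34 CPM at 4 weeks.

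**Figure D1:**
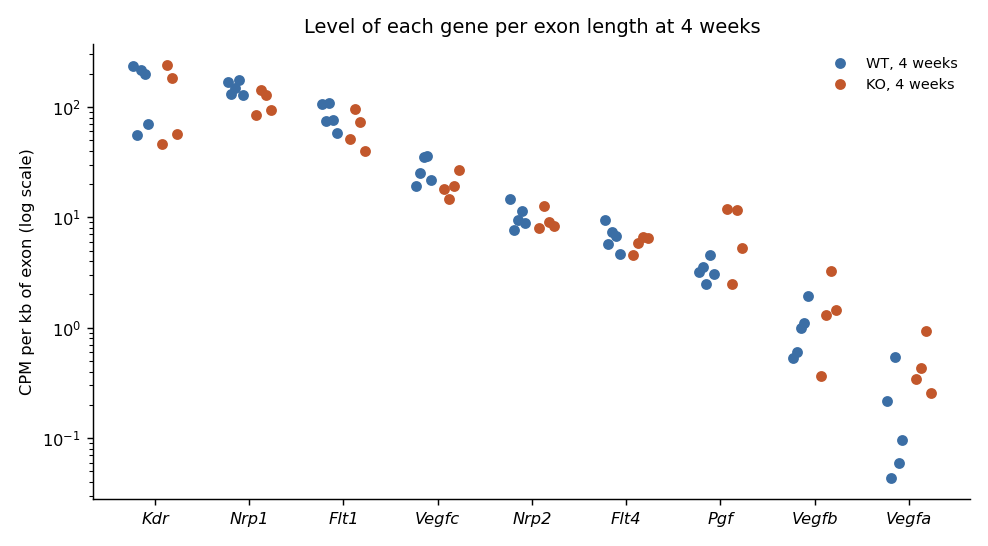
Level of each gene in the 4-week libraries, in CPM per kb of exon on a log axis, with 1 point per library (WT, 5 blue points; KO, 4 orange points) and genes ordered by their mean in WT. Kdr, Nrp1 and Flt1 lie at the top, Vegfc leads the ligands, and Vegfa lies lowest in both genotypes.

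Kdr differed more between libraries of 1 genotype than between genotypes. At 4 weeks the WT libraries f, f3, m1, m2 and m3 had 2113, 500, 1940, 1789 and 626 CPM of Kdr (500 being 499.7 before rounding). The KO libraries f2, m1, m2 and m3 had 416, 2179, 1646 and 517 CPM. High and low libraries occurred in both genotypes and followed the 2 sets of libraries: 1646 to 2179 CPM in the first and 416 to 626 CPM in the second. On the log2 scale the first set was 1.83 above the second, and 14 of 4719 genes with a mean log2 CPM of at least 5 had a larger difference. The median gene differed by -0.12. Across those genes the difference followed exon length with a Spearman's rho of 0.42, given as a description over genes that are not independent. Other transcripts differed with it: the summed markers of sinusoidal endothelium were at 740 to 1040 CPM in the first set and 298 to 525 CPM in the second, and those of mesenchymal stroma at 2087 to 3066 and 876 to 1232 CPM. Arterial markers went the other way, with 3991 to 5195 CPM in the first set and 5219 to 6329 CPM in the second. What part these had in the level of Kdr was not tested. Genotypes were compared with edgeR, which models counts across all genes that pass a filter on low counts. It gives a log2 fold change of KO against WT with its standard error (SE) and a p adjusted over all genes, with a threshold of 0.05. At 4 weeks the log2 fold change of Kdr was -0.43 (SE 0.614, edgeR adjusted p = 1). A term for the sets, added after the data were seen, brought it to -0.16 (SE 0.129). Within the first set the log2 difference of KO less WT, on TMM-scaled log2 CPM, was -0.03, and within the second it was -0.28. CPM overlapped in both sets, while on the TMM scale KO was lower without overlap in the second, where 18.6% of all genes were.

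At 2 weeks Kdr was uniform by comparison. The WT libraries f1, f4, m2 and m3 had 371, 778, 553 and 482 CPM, and the KO libraries f1, f4, m2 and m3 had 368, 567.5, 533 and 516 CPM. The ranges overlapped almost fully, and the log2 fold change was -0.13 (SE 0.255, edgeR adjusted p = 1). It changed sign when WT f4 or KO f1 was left out (0.15 and 0.03).

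Flt1 was the member that separated the genotypes at 2 weeks. The WT libraries f1, f4, m2 and m3 had 613, 594, 608 and 689 CPM of Flt1, and the KO libraries f1, f4, m2 and m3 had 346, 436, 390 and 383 CPM. Every KO library was below every WT library, and each group was narrow (626 ± 43.0 against 389 ± 36.9 CPM, SD, n = 4 each). This held for 1 of the 6 members tested at 2 weeks, and 1.78% of all 10477 genes tested had every KO library below every WT library. This was a log2 fold change of -0.69 (SE 0.128). In such bulk libraries fewer cells of a type and less RNA per cell cannot be told apart. Its unadjusted p of 0.00107 in edgeR ranked 10 among all genes, with Eng first. After Benjamini-Hochberg adjustment over all genes the edgeR p was 0.964, so that Flt1 did not pass the threshold of 0.05. It passed with DESeq2 (adjusted p = 0.000243, where 1.45% of genes passed) and not with limma voom (adjusted p = 0.123). Over the remaining alternatives the edgeR adjusted p lay between 0.201, in 1 model of all 17 libraries, and 1. Without any 1 library the log2 fold change ran from -0.78 to -0.61. Without the KO libraries m2 and m3, which held the neutrophil transcripts, it was -0.65. Flt1 at 390 and 383 CPM in these 2 libraries lay between the values of the other KO libraries. The 10 summed erythroid markers also separated the 2-week genotypes without overlap, at 61.5 to 233 CPM in WT and 278 to 1251 CPM in KO, and their part in the level of Flt1 was not tested. Relative to Pecam1, an endothelial junction gene that encodes the sorting marker CD31, Flt1 was at a ratio of 0.511 to 0.803 in WT and 0.349 to 0.634 in KO, and these ranges overlapped.

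At 4 weeks the Flt1 values of the genotypes overlapped. The WT libraries f, f3, m1, m2 and m3 had 1426, 1001, 1476, 1034 and 788 CPM, and the KO libraries f2, m1, m2 and m3 had 691, 1292, 984 and 538 CPM. KO less WT gave a log2 fold change of -0.39 (SE 0.282, edgeR adjusted p = 1), and -0.31 (SE 0.163) with the term for the sets. Within the second set both KO libraries were below both WT libraries (log2 difference -0.55), as for 18.6% of all genes, and within the first set the libraries overlapped (-0.20). The difference between the 4-week and the 2-week effect was 0.27 (SE 0.33, edgeR adjusted p = 1). With libraries paired by number it was 0.40 (SE 0.18, unadjusted edgeR p of 0.0605, adjusted p = 0.88). The effects were thus not shown to differ.

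**Figure D2:**
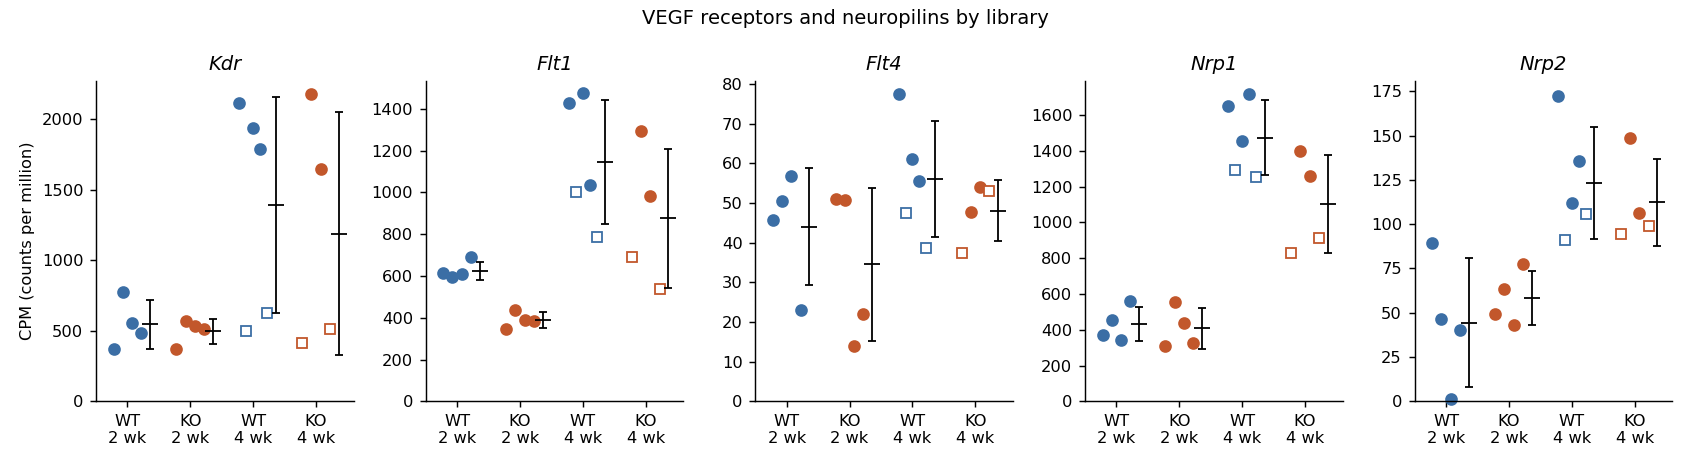
CPM of the 3 receptors and 2 neuropilins in every library, in panels with separate axes from 0 (WT blue, KO orange). Filled circles are 2-week libraries and the first set at 4 weeks, open squares are the second set at 4 weeks, and black marks give mean ± SD. Flt1 shows no overlap between genotypes at 2 weeks, and Kdr at 4 weeks splits by set and not by genotype.

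Flt1 and Kdr lie on the same chromosome of mouse assembly GRCm38 and were set side by side because one separated the genotypes at 2 weeks and the other the sets at 4 weeks. Kdr lies at chr5:75932827-75978458 and Flt1 at chr5:147561604-147726011, both on the minus strand. Their RefSeq promoter windows (GRCm38.p6, chr5:75978406-75978705 for Kdr and chr5:147725962-147726261 for Flt1, 250 bases before to 50 after the annotated start, gene strand) are shown to compare their core elements. Capitals mark the ETS core GGAA on either strand (TTCC where it lies on the other) and the TATA box TATAAA.
Kdr: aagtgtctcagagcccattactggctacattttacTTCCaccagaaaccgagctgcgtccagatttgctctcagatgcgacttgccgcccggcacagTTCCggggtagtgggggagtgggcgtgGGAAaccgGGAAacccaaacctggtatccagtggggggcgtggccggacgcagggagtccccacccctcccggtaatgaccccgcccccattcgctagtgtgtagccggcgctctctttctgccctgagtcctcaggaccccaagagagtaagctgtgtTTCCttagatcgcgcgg
Flt1: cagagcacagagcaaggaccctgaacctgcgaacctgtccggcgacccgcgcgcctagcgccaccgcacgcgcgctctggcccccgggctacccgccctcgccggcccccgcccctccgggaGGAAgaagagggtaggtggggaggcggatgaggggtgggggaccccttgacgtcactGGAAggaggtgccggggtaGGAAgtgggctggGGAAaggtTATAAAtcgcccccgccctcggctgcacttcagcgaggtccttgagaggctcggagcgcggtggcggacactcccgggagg
The window of Flt1 held 1 TATAAA and that of Kdr none, and 13.6% of all 32851 promoter windows of this length held one on either strand. The ETS core occurred 5 times in the Kdr window and 4 times in that of Flt1. Factors of the ETS family act at many endothelial genes, but 96.0% of all windows held at least 1 such core and 46.3% held 4 or more. The cyclic AMP response element TGACGTCA occurred once in the Flt1 window, in 1.79% of all windows, and in no other window of the 9 genes. The GC box GGGCGG, searched on both strands, occurred 3 times in Flt1 and 2 times in Kdr, with 35.7% of all windows holding at least 1. All 9 members matched the promoter table, with 11 windows in all. These matches describe letters in a window and are not binding sites.

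The ratio of Flt1 to Kdr per kb sets the counts of these genes side by side, each divided by its merged exon length. It is not a ratio of transcript numbers, because counts are per gene and forms of RNA were not told apart. At 2 weeks it was 1.10, 0.511, 0.736 and 0.957 in WT f1, f4, m2 and m3, and 0.628, 0.514, 0.489 and 0.496 in KO f1, f4, m2 and m3. The KO libraries were closer together and lay within or below the lower part of the WT range. At 4 weeks the ratio was 0.386 to 0.509 in the first set and 0.697 to 1.34 in the second, with both genotypes in each. The difference between the sets followed exon length across genes (Spearman's rho of 0.42), and the part of this in the ratio was not tested. Kdr and Flt1 correlated over the 9 libraries of 4 weeks with a Pearson's r of 0.78 and a Spearman's rho of 0.82 on log2 CPM, as a description of points that share the 2 sets.

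**Figure D3:**
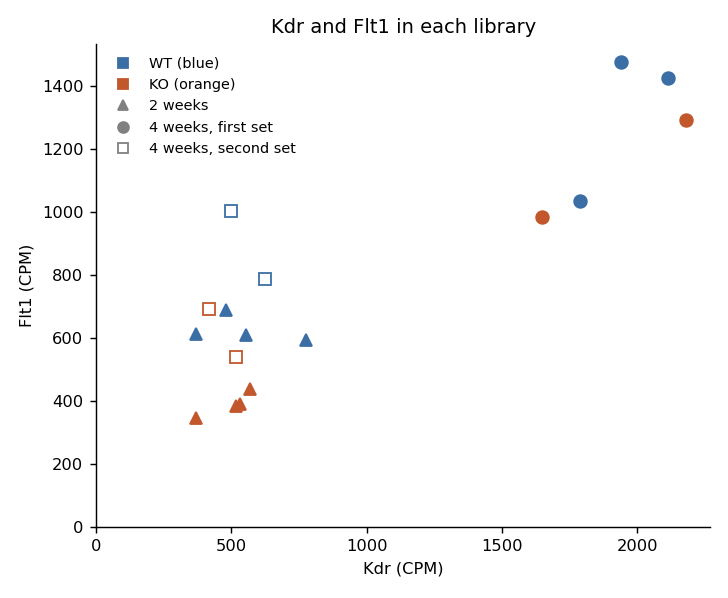
Flt1 against Kdr in CPM, 1 point per library (WT blue, KO orange; triangles 2 weeks, filled circles the first and open squares the second set at 4 weeks). The first set lies apart at the right with Kdr of 1646 CPM or more in both genotypes, and the 2-week KO triangles lie below the 2-week WT triangles at a like level of Kdr.

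Flt4, which encodes VEGFR3 and is at chr11:49609263-49652739 (plus strand), was low beside Kdr per kb, with a ratio of 0.0241 to 0.152 over the 17 libraries. At 2 weeks WT f1, f4, m2 and m3 had 45.9, 50.4, 56.9 and 23.1 CPM of Flt4, and KO f1, f4, m2 and m3 had 51.2, 50.8, 14.0 and 22.2 CPM. The 3 lowest of these libraries were males, 1 WT and 2 KO. The log2 fold change of -0.51 (SE 0.56, edgeR adjusted p = 1) became 0.05 without KO m2 and m3. At 4 weeks WT f, f3, m1, m2 and m3 had 77.6, 47.6, 61.0, 55.6 and 38.7 CPM, and KO f2, m1, m2 and m3 had 37.4, 47.8, 54.1 and 53.1 CPM. The groups overlapped (log2 fold change -0.20, SE 0.224, edgeR adjusted p = 1), and without KO f2 the value was 0.01. Within the first set both KO libraries were below the 3 WT libraries (log2 difference -0.33), as for 8.76% of all genes, and within the second they overlapped (0.049). The 5 lymphatic markers summed to at most 23.2 CPM in any library, and Pdpn, Ccl21a and Reln were at 0 in all 2-week libraries.

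Nrp1 was the neuropilin of these cells by level. Its product binds VEGF-A and enhances signalling through VEGFR2, and the gene lies at chr8:128358604-128503363 on the plus strand, with 80 bases of exon shared with Mir1903. At 4 weeks WT f, f3, m1, m2 and m3 had 1650, 1291, 1454, 1718 and 1253 CPM of Nrp1, and KO f2, m1, m2 and m3 had 829.1, 1399, 1261 and 914 CPM. The 2 lowest libraries were KO libraries of the second set, while KO m1 and m2 reached into the WT range. The log2 fold change was -0.44 (SE 0.165), with an unadjusted edgeR p of 0.0255 and an adjusted p of 1. One other member, Pgf, had an unadjusted p under 0.05 at 4 weeks, and 2.77% of the 15209 genes tested did. Lower in KO with such a p were 1.47%. KO was below WT in each set without overlap, by a log2 difference of -0.27 in the first and -0.55 in the second. Of all genes 8.76% and 18.6% were lower without overlap in these small sets. A term for the sets, added after the data were seen, gave -0.40 (SE 0.0996, unadjusted edgeR p of 0.0046). The sets were drawn from these same libraries, and that p takes no account of this. With the 6 males paired by number the value was -0.31 (SE 0.124, unadjusted edgeR p of 0.0584). Leaving out KO f2 gave -0.30 with an unadjusted edgeR p of 0.149. Relative to Pecam1, Nrp1 was at 0.432 to 0.583 in WT and 0.357 to 0.466 in KO, with overlap.

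At 2 weeks after tamoxifen Nrp1 did not separate the genotypes. WT f1, f4, m2 and m3 had 373, 453, 342 and 558 CPM, and KO f1, f4, m2 and m3 had 311, 555, 437 and 328 CPM. Its log2 fold change was -0.09 (SE 0.263, edgeR adjusted p = 1), and it was above 0 when WT m3, KO f1 or KO m3 was left out (0.13, 0.04 and 0.0009045). The 4-week effect less the 2-week effect was -0.37 (SE 0.31, edgeR adjusted p = 1).

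Nrp2, which binds VEGF-C and lies at chr1:62703285-62818695 (plus strand), was 5.04 to 17.2 times lower than Nrp1 per kb in 16 libraries, while in WT m2 at 2 weeks it had 42 counts (1.29 CPM) and the ratio was 321.5. The other 2-week WT libraries f1, f4 and m3 had 89.6, 46.8 and 40.2 CPM of Nrp2, and KO f1, f4, m2 and m3 had 49.4, 63.3, 43.4 and 77.4 CPM. The log2 fold change of 0.61 (SE 1.03, edgeR adjusted p = 1) was 0.03 at its lowest when 1 library was left out. At 4 weeks WT f, f3, m1, m2 and m3 had 172, 91.0, 112, 136 and 106 CPM, and KO f2, m1, m2 and m3 had 94.6, 149, 107 and 99.1 CPM. The ranges overlapped (log2 fold change -0.11, SE 0.211, edgeR adjusted p = 1).

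Among the ligands Vegfc was present in every library. It encodes the main ligand of VEGFR3 and lies at chr8:54077606-54187096 (plus strand). At 4 weeks WT f, f3, m1, m2 and m3 had 46.6, 62.0, 86.1, 87.6 and 53.6 CPM, and KO f2, m1, m2 and m3 had 44.3, 35.8, 46.7 and 65.0 CPM. KO f2 and m1 were below every WT library, KO m2 was level with the lowest of them, and KO m3 was inside the WT range. The log2 fold change was -0.50 (SE 0.25, unadjusted edgeR p of 0.0774, adjusted p = 1). The log2 difference was -0.79 within the first set and -0.11 within the second. CPM overlapped in both sets, while on the TMM scale KO was lower without overlap in the first, where 8.76% of all genes were. At 2 weeks WT had 9.63, 44.8, 25.4 and 10.05 CPM in f1, f4, m2 and m3 and KO had 30.3, 9.28, 11.2 and 22.4 CPM. The ranges overlapped (log2 fold change -0.25, SE 0.967, edgeR adjusted p = 1).

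Pgf, the ligand that binds VEGFR1 and not VEGFR2, lies at chr12:85166635-85177790 (minus strand). At 4 weeks WT f, f3, m1, m2 and m3 had 9.34, 10.35, 7.20, 13.3 and 8.98 CPM, and KO f2, m1, m2 and m3 had 34.8, 7.24, 34.1 and 15.2 CPM. KO f2, m2 and m3 were above every WT library and KO m1 was among the lowest, so the groups overlapped. The log2 fold change was 1.23 (SE 0.446), with an unadjusted edgeR p of 0.0228 and an adjusted p of 1. Within the second set both KO libraries were higher (log2 difference 1.24), as for 18.4% of all genes, and within the first they overlapped (0.70). Of all genes tested 1.3% had an unadjusted p under 0.05 and a higher level in KO. Without KO m2 it was 0.86 and without KO f2 0.94, and with the 6 males paired by number it was 0.71 (SE 0.446, unadjusted edgeR p of 0.178). The 4 KO libraries f2, m1, m2 and m3 held 2501, 621, 2916 and 1453 CPM of 10 summed erythroid markers, so that the KO library lowest in Pgf was also lowest in these. WT libraries held 172 to 1303 CPM of the same markers, and their part in the level of Pgf was not tested. The 6 B cell markers, summed, separated the genotypes at 4 weeks, with 3.89 to 8.51 CPM in WT and 9.02 to 17.8 CPM in KO, and their part in the 4-week values of Pgf, Nrp1 or any other gene was not tested. At 2 weeks Pgf had 0 counts in all 4 WT libraries and in KO f1, f4 and m3, and 484 counts (16.3 CPM) in KO m2. KO m2 also held the most neutrophil (4104 CPM), erythroid (1251 CPM) and macrophage and monocyte (123 CPM) marker transcripts at 2 weeks.

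Vegfa and Vegfb had the lowest levels of the members at 4 weeks and uneven counts at 2 weeks. Vegfa, at chr17:46016993-46032369 (minus strand), encodes the principal ligand of VEGFR2. Its counts at 4 weeks were 31, 5, 60, 8 and 10 in WT f, f3, m1, m2 and m3 and 30, 50, 108 and 29 in KO f2, m1, m2 and m3, or 0.185 to 2.35 against 1.10 to 4.03 CPM. The libraries overlapped (log2 fold change 1.29, SE 0.942, edgeR adjusted p = 1). Without WT m1, the WT library with the most Vegfa counts, the log2 fold change was 2.34, and without the other 4-week libraries in turn it was 0.92 to 1.60. Within the sets KO was higher without overlap for Vegfa in the second (1.93) and for Vegfb in the first (1.26), where 18.4% and 9.27% of all genes were. At 2 weeks it had 116 counts in KO m2, 21 in WT m3 and at most 2 in the other 6 libraries. Vegfb, whose product binds VEGFR1, lies at chr19:6982473-6987651 (minus strand) and had 12 to 141 counts in each 4-week library (log2 fold change 0.24, SE 0.714, edgeR adjusted p = 1). At 2 weeks 1358 counts (50.9 CPM) were in KO f1 and 203 (5.38 CPM) in WT m3, with at most 1 count in each of the others. Vegfa, Vegfb and Pgf did not pass the filter on low counts in the fit of the 2-week libraries and have no test there. In 1 model of all 17 libraries their unadjusted edgeR p-values at 2 weeks were 0.152, 0.245 and 0.0077, the last from counts in KO m2 alone.

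**Figure D4:**
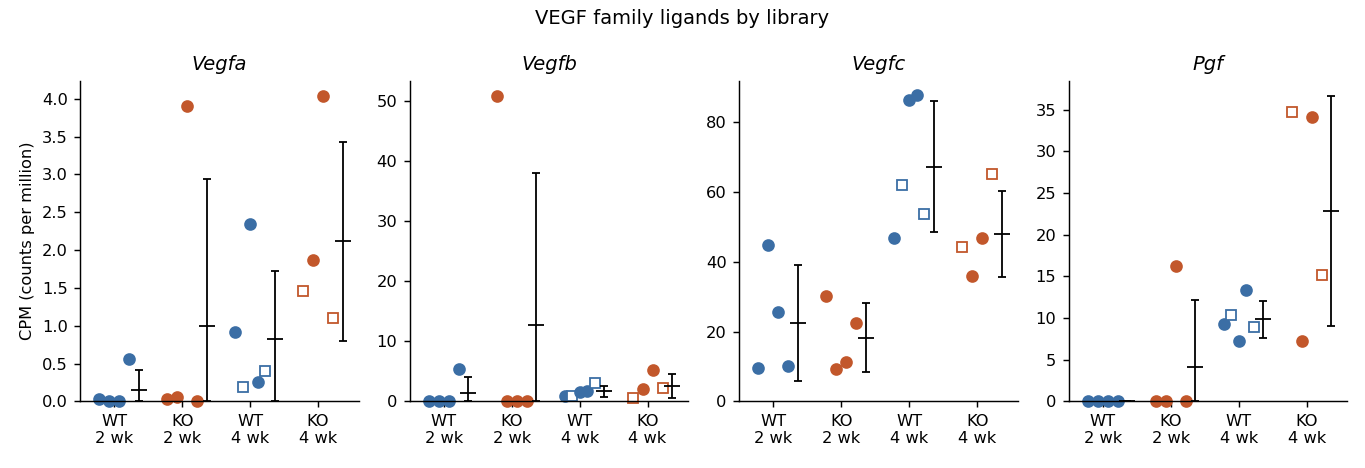
CPM of the 4 ligands in every library, in panels with separate axes from 0, with symbols as in the plot of receptors and neuropilins (black marks, mean ± SD, with the lower SD cut at 0). Vegfc is present throughout, and at 2 weeks Vegfa, Vegfb and Pgf each stand out in 1 KO library while the replicates lie at or near 0.

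Over all members, 0 of the 6 tested at 2 weeks and 0 of the 9 tested at 4 weeks passed an adjusted p of 0.05 in edgeR, where 0% of all genes passed at either time. With an unadjusted edgeR p under 0.05 there was 1 at 2 weeks (Flt1, beside 2.63% of all genes, or 1.47% that were lower in KO) and 2 at 4 weeks (Nrp1 lower, Pgf higher, beside 2.77% of all genes, or 1.47% that were lower and 1.3% that were higher). DESeq2 called 1 member at 2 weeks, Flt1, and 0 at 4 weeks, where it called 0.114% of all genes. Voom called 0 members at both times. The median log2 fold change of the members was -0.19 at 2 weeks and -0.20 at 4 weeks, beside -0.06 and 0.01 for all genes tested. Negative values were found for 5 of 6 members at 2 weeks, where the median of all genes was itself below 0, and for 6 of 9 at 4 weeks. On simulated counts with the spread of these libraries, edgeR recovered 3 of 100 genes changed by 2 on the log2 scale at 2 weeks and 62 of 100 at 4 weeks. Of genes changed by 1 on that scale it recovered 1 of 100 at 2 weeks and 10 of 100 at 4 weeks. A missed threshold therefore does not show that a member was the same in both genotypes.

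**Figure D5:**
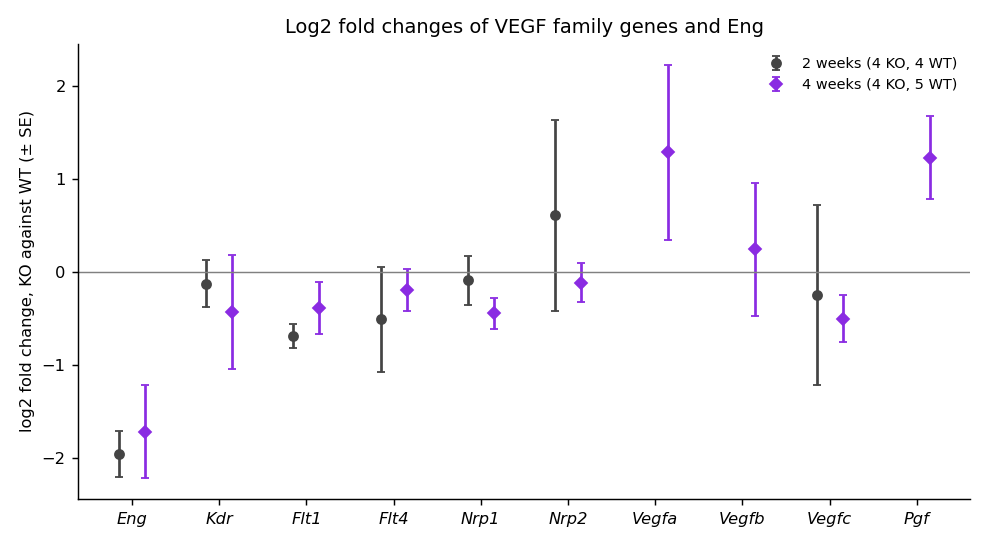
Log2 fold change of KO against WT with its SE at 2 weeks (dark grey circles, 4 against 4 libraries) and 4 weeks (purple diamonds, 4 against 5), for Eng and each member, from edgeR. Eng is lowest at -1.96 and -1.72, Flt1 at 2 weeks has the smallest error of the members at that time, and Vegfa, Vegfb and Pgf have no 2-week value because they did not pass the filter in that fit.

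Whether genotype acted differently at 4 than at 2 weeks was tested as an interaction, which edgeR called for 0 of 9 members, and 0.104% of the 13515 genes in that fit were called (14 genes, and 0 with the libraries paired by number). A single member had an unadjusted p under 0.05, in the direction that held 4.47% of all genes: Pgf, whose fitted difference of -8.54 (SE 3.27, edgeR adjusted p = 0.418) rested on the group at 0 counts and turned to 1.28 without the 2-week KO library m2. DESeq2 gave an adjusted p of 4.677e-13 for it, from the same counts, and called no other member and 6.91% of all genes.

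Between the time points Nrp1 was the member with the clearest difference in both genotypes. In WT it rose from 432 ± 96.5 CPM at 2 weeks (SD, n = 4) to 1473 ± 208 at 4 weeks (SD, n = 5), a log2 fold change of 1.44 (SE 0.219, edgeR adjusted p = 0.00126). In KO it rose from 408 ± 113 to 1100 ± 273 CPM (SD, n = 4 each), by 1.08 (SE 0.231, edgeR adjusted p = 0.0116). The KO call was lost with voom (adjusted p = 0.0577) and without the 2-week KO libraries m2 and m3 (adjusted p = 0.092). Pgf passed in WT at an edgeR adjusted p of 0.0497, from 0 counts in every 2-week WT library to 9.84 ± 2.26 CPM at 4 weeks. The latter is 121.5 times the mean floor of 3 counts per library. That floor covers counting error only, and 2-week KO m2 had 484 counts of Pgf beside replicates at 0. The factor is therefore not a lower bound on the rise. The call of Pgf in WT was lost with upper quartile scaling (adjusted p = 0.0502), without the filter on low counts (0.0768) and without any 1 of the WT or 4-week KO libraries (0.0629 to 0.0967). Together 2 of 9 members were called higher at 4 weeks in WT and 1 of 9 in KO, against 5.74% and 5.7% of all genes. None was called lower, which 2.29% and 1.86% of all genes were. Pgf, at 0 counts in all 2-week WT libraries, could only be called higher in WT. The libraries of the time points did not overlap for 5 members in WT (Flt1, Nrp1, Nrp2, Vegfc and Pgf) and 4 in KO (Flt1, Nrp1, Nrp2 and Vegfc). The corresponding share of all genes was 17.4% in WT and 21.6% in KO. Flt1 in KO differed by 0.82 (SE 0.244, edgeR adjusted p = 0.0548), and it passed with DESeq2 (adjusted p = 0.00747, where 15.9% of genes passed), with DESeq2 size factors (0.0472), with at least 10 counts in every library (0.0242), without the sex term (0.0341) and without 4-week KO m3 (0.0213). Vegfc differed by 1.30 in WT (SE 0.529, edgeR adjusted p = 0.185) and passed with DESeq2 (adjusted p = 0.0403) and without 2-week WT f4 (edgeR adjusted p = 0.0457). Pgf in KO differed by 2.52 (SE 2.23, edgeR adjusted p = 0.733), and passed with voom (adjusted p = 0.0482) and, with the 2-week group then at 0 counts, without KO m2 (edgeR adjusted p = 0.00377). Kdr differed by 0.98 (SE 0.497) in WT and 0.78 (SE 0.536) in KO and did not pass in edgeR (adjusted p of 0.348 and 0.582).

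Pecam1 rose beside Nrp1, by 1.18 in WT and 1.18 in KO (edgeR adjusted p of 0.000647 and 0.001). The ratio of Nrp1 to Pecam1 was 0.389 to 0.489 in WT at 2 weeks and 0.432 to 0.583 at 4 weeks, with overlap. In KO it was 0.314 to 0.807 at 2 weeks and 0.357 to 0.466 at 4 weeks, also with overlap and with the mean lower at 4 weeks (0.472 and 0.408). The median of all genes was 0.27 in WT and 0.34 in KO in these comparisons. The 2-week libraries also had fewer detected genes, a larger mitochondrial share and 777 to 1918 CPM of dissociation stress genes against 8222 to 12330.0 CPM at 4 weeks, so that time and the state of the libraries cannot be told apart. With mitochondrial counts left out of the denominator Nrp1 averaged 578 CPM in WT and 553.5 CPM in KO at 2 weeks, and 1576 and 1184 CPM at 4 weeks.

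By likeness of pattern, each well-measured member was set beside the 3 genes with the highest Pearson's r of log2 CPM over the 9 libraries of 4 weeks, among genes with a mean log2 CPM of at least 5. For Kdr these were Anapc1 (0.993), Mob1a (0.990) and Gbp9 (0.990), and for Flt1 they were 2610507B11Rik (0.975), Myo10 (0.972) and Cdh23 (0.971). Flt4 was most like Cd247 (0.939), Sh3tc1 (0.903) and Col4a2 (0.875). Nrp1 was closest to Thbd (0.960), the gene of the endothelial anticoagulant thrombomodulin, then Epn2 (0.956), an epsin of receptor endocytosis, and Cmtm6 (0.951). Nrp2 was nearest to Cstf2 (0.918), Plxnd1 (0.916), a semaphorin receptor, and Sema6d (0.916). Vegfc was nearest to Tvp23b (0.921), B4galt3 (0.917) and Dcaf12 (0.892). All of these describe 9 libraries that share the 2 sets, and the r values were the highest of 4719 genes in each case.

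The genes that act with the members were taken from 6 lists, which were chosen with earlier results of these data known. Each list is given by how many of its genes passed, beside all genes tested. No gene of any list passed an adjusted p of 0.05 in edgeR between genotypes at either time. Of 44 signal transducers downstream of the VEGF receptors, 35 were tested at 2 weeks and 41 at 4 weeks. With an unadjusted edgeR p under 0.05 there were 0 at 2 weeks and 3 at 4 weeks, all lower in KO, in a class that held 1.47% of all genes at each time. They were Plcg2, a phospholipase C, with a log2 fold change of -1.36 (SE 0.404), Ppp3cb, a calcineurin catalytic subunit, with -1.21 (SE 0.403), and Iqgap1, a VEGFR2-binding scaffold, with -0.39 (SE 0.164), the last named after its values were seen. Plcg2 (11.01 ± 5.96 CPM in KO, SD, n = 4, against 21.4 ± 5.56 in WT, SD, n = 5) and Ppp3cb (11.6 ± 4.27 against 27.1 ± 10.7) did not overlap between genotypes, as 0.526% of all genes did not with KO lower. Positive log2 fold changes with the smallest p were 0.42 for Ptpn11 and 0.62 for Sphk1 at 4 weeks, and 1.51 for Nck2, without overlap as 1.58% of all genes with KO higher, and 0.91 for Ppp3ca at 2 weeks. Map2k2 and Nck1 were at -0.28 and -0.44 at 2 weeks. The list's median log2 fold change was -0.22 at 2 weeks and -0.07 at 4 weeks, beside -0.06 and 0.01 for all genes.

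Of 25 genes for phosphatases, trafficking and feedback of the receptors, 21 and 24 were tested, and those with an unadjusted p under 0.05 numbered 0 at 2 weeks and 1 at 4 weeks, beside 2.63% and 2.77% of all genes. This was Ephb4, an Eph receptor of veins, at 167 ± 34.5 CPM in KO and 232 ± 39.2 in WT at 4 weeks (SD, n = 4 and 5; log2 fold change -0.43, SE 0.169) and at 0.28 (SE 0.348) at 2 weeks. Itgb1, the integrin beta 1 chain, was at -0.40 (SE 0.186), and Gipc1 and Rab5a, trafficking proteins, at 0.39 and 0.23 at 4 weeks. Myo6, Dab2 and Ptprb, the endothelial phosphatase that acts on VEGFR2, were at 0.70, -1.45 and -0.18 at 2 weeks. Without 1 library these ran from -0.93 to 1.41, -2.29 to -0.92 and -0.29 to -0.067. The medians were -0.18 and -0.12.

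Of 14 genes listed as neuropilin and plexin partners and semaphorin ligands, 5 were tested at 2 weeks and 10 at 4 weeks. Sema6a, which encodes a transmembrane semaphorin, had the unadjusted p under 0.05, lower in KO at 2 weeks without overlap, as were 1.47% of all genes by p and 1.78% by overlap (21.1 ± 10.8 against 75.3 ± 40.3 CPM, SD, n = 4 each; log2 fold change -1.70, SE 0.624), and it was at -0.37 (SE 0.28) at 4 weeks. Plxnd1 was at -0.37 (SE 0.266) at 2 weeks, and Sema3f, Sema3g and Plxna4 were at 0.54, 0.26 and -0.82 at 4 weeks. All 5 values at 2 weeks were below 0 and 7 of 10 were at 4 weeks (medians -0.72 and -0.13, beside -0.06 and 0.01 for all genes).

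The 15 heparan sulfate proteoglycans and enzymes that bind or process VEGFs had 0 genes with an unadjusted p under 0.05 at either time, with 7 and 12 tested. Perlecan, encoded by Hspg2, was at 278 ± 101 CPM in KO and 409 ± 128 in WT at 4 weeks (SD, n = 4 and 5; log2 fold change -0.57, SE 0.284) and at -0.56 (SE 0.362) at 2 weeks. Sdc3 was at -0.81 and Sulf2 at 2.43 at 2 weeks, and Hs6st1, Ext1 and Sdc4 were at 1.86, 0.16 and -1.05 at 4 weeks. Without 1 library Sdc3 ran from -1.09 to -0.35 and Sulf2 from 1.69 to 3.29. At 4 weeks Hs6st1 then ran from 1.155 to 2.68, Ext1 from -0.017 to 0.52 and Sdc4 from -1.29 to -0.37. Of the 7 values at 2 weeks 6 were below 0, and of the 12 at 4 weeks 6 were (medians -0.81 and 0.04, beside -0.06 and 0.01 for all genes).

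The list of 25 genes that VEGF is known to induce in endothelium held the smallest p of any list gene. Angpt2, the Tie2 antagonist Angiopoietin-2, was at 154 ± 34.0 CPM in KO and 54.6 ± 14.6 in WT at 4 weeks (SD, n = 4 and 5), with every KO library above every WT library, as for 0.664% of all genes. Its log2 fold change was 1.52 (SE 0.273, unadjusted edgeR p of 0.000398, adjusted p = 1), and it passed with DESeq2 (adjusted p = 0.000908, where 0.114% of genes passed). Without any 1 library of 4 weeks edgeR called 0 genes. Apln, the gene of the endothelial peptide apelin, was at 1.13 (SE 0.324, 156 ± 44.6 against 72.0 ± 29.1 CPM), and Plat, which encodes tissue plasminogen activator and was named after its values were seen, at 0.50 (SE 0.204). These 3 of 23 tested had an unadjusted p under 0.05 and higher levels in KO, against 1.3% of all genes, and 0 were lower. Of the 23, 10 were above 0, and the median was -0.05, beside 0.01 for all genes. Adamts1 and Plvap were at -0.78 and -0.28. At 2 weeks 0 of 15 had an unadjusted p under 0.05, and Apln, Stc1, Nr4a1 and Egr1 were at 3.20 (SE 1.93), 4.25 (SE 3.76), -1.57 (SE 0.694) and -0.50 (SE 0.431). The value of Stc1 ranged from 0.35 without KO f4 to 7.28 without KO m2, and it also moved by over 1.5 times when WT f1, WT f4 or KO m3 was left out. Between the time points this list held the most calls of the 6 lists, with 12 of 22 tested rising in WT and 6 in KO (edgeR adjusted p under 0.05), beside 5.74% and 5.7% of all genes. Among those called in WT, Dusp5 and Nr4a3 were at 0 CPM at 2 weeks and could only be called higher. Egr2, Nr4a2 and Mmp14 averaged at most 0.064 CPM there. In the other lists, in the order given here with the transcription factors last, 3 of 41, 5 of 24, 0 of 8, 2 of 11 and 1 of 18 rose in WT and 2, 2, 1, 1 and 3 rose in KO. Prkca and Ndst2, counted there as rising in WT, were also at 0 CPM in 2-week WT. Signal transducers also held 3 that fell in WT and 1 in KO, beside 2.29% and 1.86% of all genes, and no gene of the other lists fell. Egr1, Egr2, Nr4a1, Dusp5, Icam1 and Plvap were called in both. Egr1 and the Nr4a genes are immediate early genes, and the dissociation stress markers given above differed between the same libraries.

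Of 21 transcription factors of the receptor genes and of Vegfa, 17 and 20 were tested. At 2 weeks Sox17, an arterial factor, and Ets1, of the ETS family, had unadjusted p-values under 0.05 and lower levels in KO, as did 1.47% of all genes. Sox17 was at 211 ± 59.9 CPM against 346 ± 72.6 in WT (SD, n = 4 each; log2 fold change -0.73, SE 0.246), and Ets1 at 259 ± 103 against 391 ± 128 (-0.65, SE 0.218), with overlap in each. At 4 weeks they were at 0.13 (SE 0.126) and -0.49 (SE 0.312). Nr2f2, the venous factor COUP-TFII, was at 41.01 ± 12.4 CPM in KO and 22.2 ± 4.89 in WT at 4 weeks (SD, n = 4 and 5). Its libraries did not overlap, as those of 0.664% of all genes with KO higher, and 1.3% of all genes were higher with an unadjusted p under 0.05. It had a log2 fold change of 0.93 (SE 0.287, unadjusted edgeR p of 0.0107, adjusted p = 1). Hif1a and Gata2 were at 0.77 and 0.52 at 2 weeks, and Arnt at -0.65 at 4 weeks. Without 1 library these ran from 0.30 to 1.14, 0.048 to 0.93 and -0.97 to -0.42. The medians were -0.28 and -0.18.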

How the data were processed

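The deposited values were raw counts per gene from the authors, 1 table per library with 49585 Ensembl identifiers. The submitters' processing notes name cutadapt, STAR, HTSeq 0.6.1p1 and GRCm38 (mm10), without roles or settings, and the annotation release and strand setting are not given in the sources used here. GENCODE M21 on GRCm38 matched 49326 identifiers and gave symbols, positions and exon lengths. Totals were 20477400 to 40882715 counts per library, and floors cover counting error only.

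Counts were tested with edgeR 4.0.16 (R 4.3.3): filterByExpr on genotype, TMM scaling, robust quasi-likelihood fit with a sex term, Benjamini-Hochberg adjustment over all genes, threshold 0.05. Each time point was fitted alone for KO against WT, and all 17 libraries together for the other comparisons. SE was derived from the F statistic. The scripts were tested on simulated data. DESeq2 1.42.0, voom in limma 3.58.1, other scalings and filters, fits without single libraries and blocks by replicate number were alternatives. The labels name each library as a separate sample but do not state how many animals each came from, so p-values measure the spread between libraries.

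Males with the same number at 4 weeks deviated together (correlations of 0.41, 0.14 and 0.54 over 4719 genes for m1, m2 and m3), and the numbers were taken as pairs there. Both m1 and both m2 libraries were in the first set and both m3 libraries in the second, so each pair by number also shared a set. The highest correlation with another number was 0.34, 0.17 and 0.47, which for m2 is above that of its own pair. At 2 weeks libraries with the same number did not deviate together (-0.01 to 0.07 over 3016 genes).

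The members and lists were chosen with earlier results of these data known. The text names all 9 members, Eng and Pecam1, per list, time and direction up to 2 genes with the smallest unadjusted p and a mean count of at least 50, and 3 genes by likeness for each member with a mean log2 CPM of at least 4. Likeness used log2 CPM with a prior count of 2. Promoter sequences came from RefSeq (GRCm38.p6). Protein sequences were not analysed here.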

Additional observations from a re-analysis of the deposited data

Results flagged for a closer look

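Libraries far from their replicates were looked for in 35 groups of 1 member's values in CPM, with a rule set to flag about 1 in 20 by chance. The 5 found were all of ligands at 2 weeks. Their replicates had at most 2 counts each, where almost any count stands out, so the 5 cannot be read against that rate. In Vegfa these were WT m3 with 0.557 CPM and KO m2 with 3.91 CPM (21 and 116 counts). In Vegfb they were WT m3 with 5.38 CPM and KO f1 with 50.9 CPM. In Pgf it was KO m2 with 16.3 CPM, where the 3 other KO libraries had 0 counts. No member passed the edgeR test of whether the effect of KO differed between the time points.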

How the results depend on the processing

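No member was called between genotypes in edgeR under any alternative run, and Flt1 at 2 weeks kept its sign in all of them. Genes called, KO against WT, were 149 with DESeq2, 12 with voom and 33 in 1 model of all libraries at 2 weeks, and 17 with DESeq2 at 4 weeks. For the interaction 929 genes were called with DESeq2, 6 without the filter, 0 with at least 10 counts in every library, 9 with voom, 278 without the 2-week KO libraries m2 and m3, and 7 to 52 without 1 library. Between time points the counts were 2090, 580 and 639 in WT and 2144, 567 and 626 in KO (DESeq2, no filter, at least 10 counts), and 520 to 1398 and 604 to 1300 without 1 library. The causes were not tested.

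Signs turned in these log2 fold changes. Without the 2-week KO libraries m2 and m3, those at 2 weeks were 0.053 for Flt4, 0.049 for Nrp1 and -0.31 for Nrp2, the interactions -0.30 for Flt4, 1.47 for Vegfa and 1.41 for Pgf, and the KO time difference of Flt4 -0.25. With voom they were -0.75 for Myo6 (2 weeks), -0.20 for Ext1 (4 weeks), 0.010 for Kdr, 0.023 for Vegfa, 0.92 for Vegfb and -0.17 for Eng (interaction), and 4.40 for Vegfb (KO over time). Without the sex term Ext1 was at -0.031 and Vegfb at -0.13 (WT over time), and in 1 model Ext1 was at -0.15. In males alone without the block Flt4 was at 0.0050 and Nrp2 at 0.00995 at 4 weeks.

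With the replicate block, the paired fit, the interaction called 0 genes, and signs turned for Myo6 at 2 weeks (-0.34), Flt4 at 4 weeks (0.026), and the interactions of Kdr (0.012) and Eng (-0.41). It was run between genotypes and for the interaction, where edgeR called no member with or without it, and not over time. At 2 weeks the numbers did not pair the libraries (correlations of -0.01 to 0.07), so that block shares a number only.

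Without 1 library, ranges that crossed 0 were at 2 weeks -0.26 to 0.15 for Kdr, -0.32 to 0.13 for Nrp1, -0.57 to 0.37 for Vegfc, -0.93 to 1.41 for Myo6 and -0.71 to 0.073 for Egr1. At 4 weeks they were -0.80 to 0.0041 for Kdr, -0.35 to 0.015 for Flt4, -0.27 to 0.020 for Nrp2, -0.17 to 0.57 for Vegfb, -0.0093 to 1.005 for Sema3f and -0.017 to 0.52 for Ext1. For the interaction they were -0.63 to 0.12 for Kdr, -4.10 to 2.55 for Vegfa, -10.8 to 5.59 for Vegfb, -0.89 to 0.14 for Vegfc, -9.49 to 1.28 for Pgf and -0.49 to 0.47 for Eng. Over time they were -0.069 to 0.40 for Flt4 and -0.36 to 8.75 for Vegfb in WT, and -4.95 to 6.26 for Vegfb in KO. Of 72 alternative levels 9 moved by over 1 SD, all at 2 weeks.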
